A study of Homo sapiens with 26 samples.

Results

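HCT116 cells carrying the label p53 knockout (KO) were compared with HCT116 cells carrying the label p53 wild type (WT) while both were under the same dose of leptomycin B. HCT116 is a human colon adenocarcinoma line whose parental cells have functional p53. The members are the 6 arrays, of 26 in the series, whose titles give 20 nM leptomycin B: KO-labelled replicates 1 to 3 and WT-labelled replicates 1 to 3. The cells of all 6 arrays had been exposed for 16 h, in McCoy medium with bovine serum, so that the agent, its dose and its duration are shared and the genotype label is what differs. No untreated array enters this comparison. Total RNA was amplified and hybridised to one-colour Illumina arrays, and the deposited values are intensities on a linear scale, of which 20.4% over the 26 arrays lay below 0.

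The isogenic lines came from the Vogelstein laboratory, per the labels. Whether the knockout line is 1 clone is not given in the sources used here, so a difference between the labels can include differences between the lines that have nothing to do with p53. The labels do not state that the 3 replicates of a label were grown apart, so each p-value reflects only array-to-array spread, which may be technical. Slide 1 held KO-labelled arrays 1 and 2, slide 3 held WT-labelled arrays 1 and 2, and slide 2 held the third array of each label. Slide 2 is therefore the only slide that compares the labels directly, and its values are given where they matter.

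Leptomycin B binds covalently to XPO1 (CRM1), the export receptor that carries proteins with leucine-rich export signals, p53 among them, out of the nucleus. p53 is a transcription factor that is held at a low level by MDM2 and that, once stabilised, induces genes of cell cycle arrest, DNA repair, apoptosis and metabolism. Its target CDKN1A encodes p21, an inhibitor of cyclin-dependent kinases. When these kinases are inhibited, RB and the DREAM complex stay active and repress cell cycle genes, reaching G1/S genes mainly through E2F sites and mitotic genes mainly through the cell cycle genes homology region (CHR).

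Because the DREAM complex acts through short promoter elements, promoters of genes that differed strongly are shown here before the values. They were picked among called list members that hold the element before the gene start. Members with larger differences, such as NEK2, CENPE and CDCA3 beside CCNF, were passed over, so these promoters do not show how common the elements are. Each stretch holds 80 bases upstream of the gene start on the gene's own strand, from RefSeq promoters on build GRCh38.p14. In the mitotic genes the capitals mark the CHR letters TTTGAA, or their reverse complement TTCAAA in KIF11. CENPA, the centromeric histone H3 variant, is shown from chr2:26785976-26786055, BUB1B, a spindle checkpoint kinase, from chr15:40160989-40161068, CCNF, an F-box cyclin, from chr16:2429325-2429404, and KIF11, the mitotic kinesin Eg5, from chr10:92593050-92593129.
CENPA: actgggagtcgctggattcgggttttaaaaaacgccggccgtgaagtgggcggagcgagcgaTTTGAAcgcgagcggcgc
BUB1B: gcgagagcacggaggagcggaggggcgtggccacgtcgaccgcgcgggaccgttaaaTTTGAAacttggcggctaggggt
CCNF: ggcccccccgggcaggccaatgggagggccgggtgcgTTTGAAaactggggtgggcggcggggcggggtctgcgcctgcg
KIF11: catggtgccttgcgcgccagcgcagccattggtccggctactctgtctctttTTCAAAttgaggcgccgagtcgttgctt

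In the G1/S genes the capitals mark an E2F site, searched as TTTCCCGC or TTTGGCGC. DTL, a substrate receptor of the CUL4 ubiquitin ligase, is shown from chr1:212035668-212035747, UHRF1, which maintains DNA methylation at replication forks, from chr19:4909421-4909500 with the site on the other strand as GCGGGAAA, CDC25A, a phosphatase that activates CDK2, from chr3:48188418-48188497, and the factor E2F2 from chr1:23531234-23531313.
DTL: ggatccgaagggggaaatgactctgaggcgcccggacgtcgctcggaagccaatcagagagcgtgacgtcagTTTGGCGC
UHRF1: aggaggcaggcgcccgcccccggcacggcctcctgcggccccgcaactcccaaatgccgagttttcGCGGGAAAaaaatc
CDC25A: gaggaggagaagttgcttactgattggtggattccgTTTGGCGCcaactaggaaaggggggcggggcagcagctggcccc
E2F2: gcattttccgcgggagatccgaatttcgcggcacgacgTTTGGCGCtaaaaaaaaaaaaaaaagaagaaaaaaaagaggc

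All differences below are KO-labelled minus WT-labelled, on the scale of log2 intensity with values under 10 set to 10, ± the SE of a limma fit with n = 3 and 3. Adjusted p-values are Benjamini-Hochberg values from that fit over 9766 genes, and an adjusted p under 0.05 is a call. The fold is a lower bound for a gene that reads at or under 10 on all 3 arrays of a label. The median difference over all genes tested was 0.02, with a range from -4.85 to 2.71.

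The labels differed widely. Of the 9766 genes, 5175 (53%) were called, 2713 (27.8%) higher and 2462 (25.2%) lower in the KO-labelled arrays, and 5964 (61.1%) had arms that did not overlap, with the KO-labelled arm above for 32.1% and below for 29%. Most differences were small. A difference of over 2-fold was called for 750 genes (7.68%), of which 340 (3.48%) were higher and 410 (4.2%) lower. Arrays of one label correlated at 0.995 to 0.998, with the WT-labelled array 3 the farthest from its group, and arrays of opposite labels at 0.971 to 0.973. On slide 2 alone, 5160 of the 5175 called genes and all of the 750 had the same sign. The arrays of slide 2 are among the 6 that gave the calls, so this agreement is not independent of them. A fit with slide as a fixed block called 3024 of the 9766 genes. The shares above come from the fit without a block and are no background for its counts. Slides 1 and 3 held a single label each, so the differences of the block fit are those between the 2 arrays of slide 2. Its array-to-array spread comes from the same-label arrays of slides 1 and 3. The 9 colon markers summed to 30382 to 30887 on the KO-labelled and 37782 to 38836 on the WT-labelled arrays, 3 of them (VIL1, KRT20 and CDH17) were at or under 10 on all 6, and so were 9 of 11 fibroblast and 10 of 15 blood and endothelial markers. Blood and endothelial markers summed to 294 to 313 in KO-labelled and 190 to 192 in WT-labelled arrays, a gap that HBA1 carried (1.64 ± 0.07), and its part in the results was not tested.

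As the deleted gene's own transcript was not analysed here, the labels were checked on p53 targets. CDKN1A read 1658, 1751 and 1764 on the KO-labelled arrays. On the WT-labelled arrays it read 16770, 17617 and 18949. The arms lay far apart, with a difference of -3.36 ± 0.07, or 10.3-fold (adjusted p = 8.83e-08), and a second CDKN1A probe gave -4.70. MDM2, the ubiquitin ligase that degrades p53, read 11.96, 7.45 and 9.87 on the KO-labelled arrays, of which 2 lay under the floor. It read 73.7, 64.8 and 55.0 on the WT-labelled arrays, all above the KO-labelled ones, and its difference of -2.59 ± 0.12 (6.03-fold, adjusted p = 2.29e-06) is therefore understated. At 20 nM, the p53 targets thus ran in the direction that the labels give. In the arrays at 2 nM, which are described last, they ran the opposite way.

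Of 104 p53 targets in 6 lists by role, 97 were on the array and 82 were tested. Among these, 64 were lower and 5 higher in the KO-labelled arrays, against a background of 25.2% lower and 27.8% higher, and the median of the 82 was -1.07. Every one of the 64 was also lower on slide 2, whose arrays are among those that gave the calls. The distribution of each role is shown in the plot of gene lists, in which the medians of the p53 lists lie left of 0 and that of the mitotic list lies right of it.

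**Figure D1:**
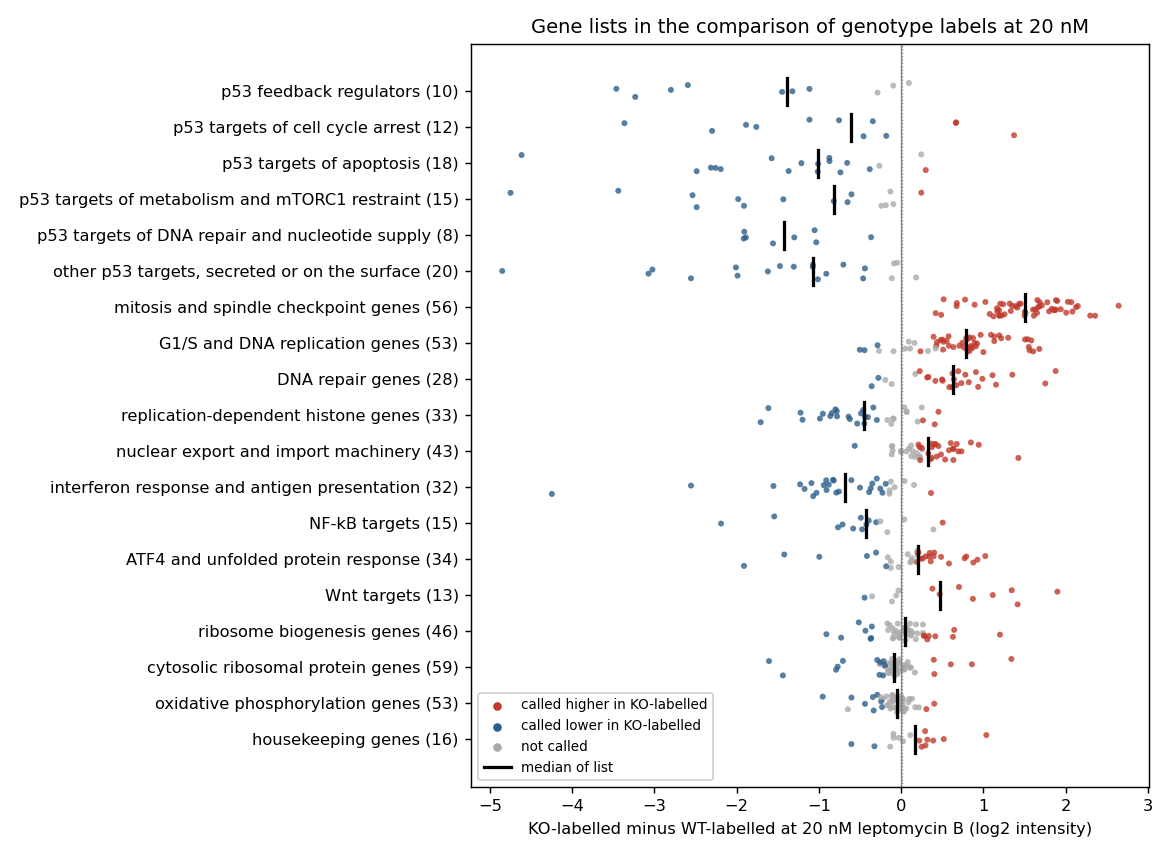
Differences between the labels at 20 nM for the members of 19 gene lists, on a log2 intensity axis. Each point is a gene tested (number in brackets), coloured by whether it was called higher, called lower or not called in KO-labelled arrays, and the black bar is the list's median. The dotted line marks the median of all genes. Medians run from -1.43 for p53 targets of DNA repair to 1.51 for mitosis genes.

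Among the feedback regulators of p53, 7 of 10 were lower, none was higher, and the median was -1.38. TP53INP1, which promotes p53 phosphorylation and autophagy, read 54.9, 58.0 and 63.4 on the KO-labelled arrays. Its WT-labelled readings were 582, 703 and 662, some 11.03-fold higher (-3.46 ± 0.09, adjusted p = 2.19e-07). ZMAT3, a zinc finger RNA-binding protein, was at -3.23 ± 0.08, and PHLDA3, which competes with AKT for membrane lipids, at -2.80 ± 0.08. FBXO22, an F-box protein of a ligase that acts on p53 complexes, was at -1.45 ± 0.08, also called. The members not called were RCHY1, MDM4 and COP1, at -0.29, -0.10 and 0.09.

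Of 12 arrest genes tested, 9 were lower and 3 higher, with a median of -0.61. Beside CDKN1A, the lower ones included PLK3, a stress-responsive polo kinase (-2.30 ± 0.08), GADD45A, a stress sensor that binds CDK1 (-1.89 ± 0.09), and SFN, the 14-3-3 sigma protein that holds CDK1 in the cytoplasm (-1.76 ± 0.07). SFN read 929, 905 and 877 on the KO-labelled arrays and 3051, 2981 and 3155 on the WT-labelled ones, so that each WT-labelled array was more than 3 times each KO-labelled one. HES1, a transcriptional repressor downstream of Notch, was higher at 1.37 ± 0.09, with KO-labelled readings of 56.2, 61.3 and 54.6 over WT-labelled readings of 24.9, 20.4 and 21.3. The other higher members, PTP4A1 and TSPYL2, named here after their values were seen, were each at 0.67.

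In the apoptosis list, 15 of 18 genes were lower and 1 was higher, with a median of -1.01. TP53I3, a quinone oxidoreductase linked to reactive oxygen species, read 28.1, 33.5 and 31.4 on KO-labelled arrays. On WT-labelled arrays it read 728, 765 and 782, and the gap of -4.62 ± 0.08 (24.5-fold, adjusted p = 4.72e-08) was the widest of the list. FAS, the death receptor, lay under 10 on all 3 KO-labelled arrays and at 43.2, 50.8 and 55.9 on the WT-labelled ones, at least 4.97-fold higher. APAF1, the core of the apoptosome, was at -2.26 ± 0.11, PIDD1, the platform that activates caspase 2, at -2.19 ± 0.07, and NINJ1, which ruptures the plasma membrane of dying cells, at -2.49 ± 0.07. The TRAIL receptors TNFRSF10B and TNFRSF10A, at -1.37 and -1.57, and BAX, the pore former of the outer mitochondrial membrane, at -0.87, were called too. BBC3 (PUMA), at -0.26, was not called. PMAIP1 (NOXA) read 140, 132 and 111 against 288, 361 and 161, so that the WT-labelled array 3 came near the KO-labelled ones, and its -1.01 ± 0.27 (adjusted p = 0.0132) shrank to -0.53 on slide 2, where it was not called with slide as a fixed block (adjusted p = 0.0709).

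Genes that restrain mTORC1 or alter metabolism were lower in 10 of 15 cases and higher in 1, with a median of -0.82. SESN1, a sestrin that restrains mTORC1, read 33.7, 42.8 and 34.6 on KO-labelled and 1013, 979 and 979 on WT-labelled arrays. This was one of the widest separations in the data, at -4.75 ± 0.10 (26.9-fold, adjusted p = 8.83e-08). DDIT4 (REDD1), which acts on mTORC1 through TSC2, was at -3.44 ± 0.08, with all KO-labelled readings from 254 to 269 and all WT-labelled ones from 2620 to 3004. CMBL, a hydrolase, was at -2.54 ± 0.08, DRAM1, a lysosomal membrane protein of autophagy, at -2.49 ± 0.07, and TIGAR, a phosphatase that lowers glycolytic flux, at -1.98 ± 0.12.

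All 8 tested p53 targets of DNA repair and nucleotide supply were lower, with a median of -1.43. RRM2B, the p53-induced ribonucleotide reductase subunit, read 76.7, 81.7 and 77.3 on KO-labelled arrays against 287, 301 and 300 on WT-labelled arrays (-1.91 ± 0.07). DDB2 and XPC, which recognise ultraviolet lesions for nucleotide excision repair, were at -1.89 ± 0.09 and -1.56 ± 0.07. POLH, the translesion polymerase eta, lay near the floor in KO-labelled arrays (7.51, 11.5 and 7.44, against 44.0, 44.3 and 31.3), so its -1.91 ± 0.14 is understated. ASCC3, a helicase of alkylation repair, was at -1.30 ± 0.07.

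Among secreted and surface products, 16 of 20 were lower and none was higher (median -1.07). GDF15, a stress-induced cytokine, read 151, 154 and 162 on KO-labelled arrays. It read 4711, 4595 and 4185 on WT-labelled arrays. No tested gene had a more negative difference than its -4.85 ± 0.07 (28.9-fold, adjusted p = 2.7e-08). CYFIP2, a WAVE complex subunit, was at -3.07 ± 0.07, SERPINB5 (maspin), a non-inhibitory serpin, at -3.02 ± 0.07, SUSD6, a membrane protein, at -2.56 ± 0.10, and the cytokine LIF at -2.01 ± 0.16. The p53 consensus decamer, searched by name on both strands of promoters of 300 bases, lay in 5 of 53 promoters of p53 targets called lower (9.43%) and in 5.07% of the 8065 promoters of tested genes that the RefSeq table holds. It also lay in 11.1% of G1/S promoters, in 10.3% of histone promoters and in 6.54% of all promoters in the table.

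**Figure D2:**
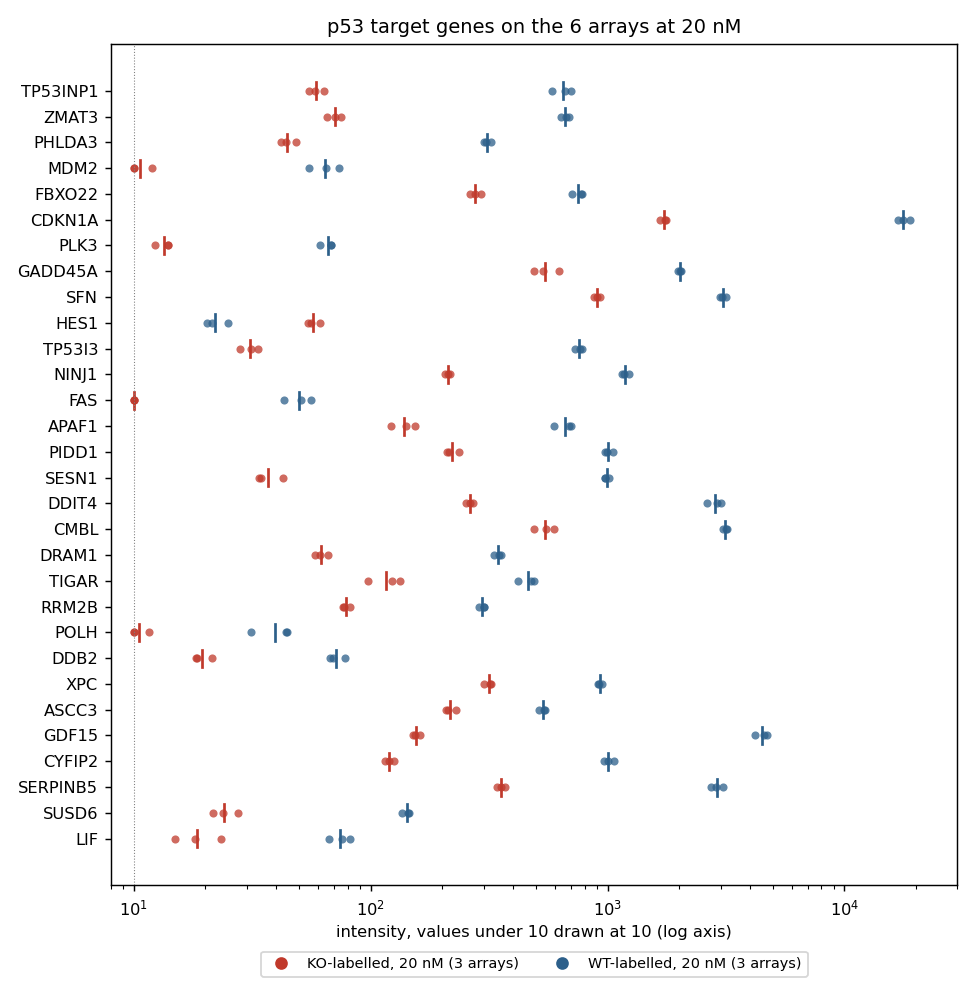
Intensity of 30 p53 targets on each of the 6 arrays at 20 nM, on a log axis with values under 10 drawn at 10 (dotted line). Red points are KO-labelled and blue points WT-labelled arrays, 3 each, and vertical bars are means of the log2 values. KO-labelled points lie left of WT-labelled points for every gene but HES1, and CDKN1A runs from 1658 to 18949.

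Genes of mitosis ran the other way. All 56 tested members of the mitosis and spindle checkpoint list were higher in KO-labelled arrays (background 27.8%), with a median of 1.51 and a range of 0.42 to 2.64. All 56 were also higher on slide 2, whose arrays are among those that gave the calls. CENPA read 294, 298 and 341 on KO-labelled arrays and 50.2, 47.1 and 51.7 on WT-labelled arrays. The arms were 6.25-fold apart (2.64 ± 0.08, adjusted p = 3.53e-07). NEK2, a centrosomal kinase, read 201, 139 and 165 against 34.1, 32.1 and 31.2 (2.36 ± 0.13), so that the KO-labelled arrays varied among themselves by far less than the gap. BUB1B read 276, 293 and 282 against 52.2, 62.2 and 58.8 (2.30 ± 0.08, adjusted p = 7.08e-07). CENPE, a kinetochore kinesin, was at 2.15 ± 0.07, CDCA3, which promotes degradation of WEE1, a kinase that holds back mitotic entry, at 2.13 ± 0.09, and HJURP, the chaperone that loads CENPA onto centromeres, which stood outside the list, at 2.27 ± 0.08.

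Members with smaller differences included BUB3 at 0.42, CDK1 at 0.68 and FOXM1 at 1.03. The cyclins CCNB1, CCNB2 and CCNA2, which activate CDK1 and CDK2, were at 1.86, 1.83 and 1.90. The Aurora kinases AURKA and AURKB were at 1.88 and 1.41, and the mitotic kinase PLK1 at 1.65.

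The CHR letters TTTGAA, searched on both strands from 250 bases before to 50 after the gene start, lay in 33 of the 46 promoters of mitosis genes in the RefSeq table (71.7%). Among genes called over 2-fold higher in KO-labelled arrays the share was 33.5% (92 of 275), among those called over 2-fold lower 9.24%, and among all tested genes 9.94%. Of all 27305 promoters in the table, 15.4% held it. The G1/S list held it in 2 of 45 promoters (4.44%). These letters describe the sequence and are not evidence of binding.

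G1/S and DNA replication genes were higher for 42 of 53 members (background 27.8%) and lower for 3 (background 25.2%), with a median of 0.79. DTL read 707, 696 and 763 on KO-labelled arrays and 229, 225 and 221 on WT-labelled arrays, which is 3.21-fold (1.68 ± 0.07, adjusted p = 1.08e-06). UHRF1 was at 1.61 ± 0.07, the repressor E2F8 at 1.58 ± 0.11, CDC25A at 1.56 ± 0.10, and CCNE2, cyclin E2, at 1.55 ± 0.08. For each of these 5 genes, picked for the largest differences, the lowest KO-labelled array lay above the highest WT-labelled one. The same held for 32.1% of all genes tested. The 3 lower members, picked out after their values were seen, were PCNA, the replication clamp (-0.50), CCND1, cyclin D1 (-0.44), and POLD1, a replicative polymerase subunit (-0.29). An E2F site lay in 20 of the 45 promoters of this list (44.4%), in 3.83% of promoters of all tested genes, in 6.52% of mitosis promoters and in 2.31% of all promoters in the table.

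DNA repair genes outside the p53 lists rose with them: 23 of 28 were higher (background 27.8%) and 2 lower (background 25.2%) in KO-labelled arrays (median 0.63). NEIL3, a glycosylase of S phase, read 103, 83.7 and 93.0 against 23.2, 24.5 and 28.3 (1.88 ± 0.11). RAD51AP1, a protein of homologous recombination, was at 1.75 ± 0.07, the mismatch repair protein MSH6 at 1.35 ± 0.07, the recombination translocase RAD54B at 1.15 ± 0.08, and the BLM helicase at 1.11 ± 0.10. The lower ones, ATM at -0.36 and RAD51C at -0.28, were picked out after their values were seen.

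Replication-dependent histone genes did not run with the other S phase genes. Of 33 tested, 21 were lower (background 25.2%) and 3 higher (background 27.8%) in KO-labelled arrays (median -0.45). A further 17 members on the array were too dim to test. H2AC12 read 15.4, 14.1 and 18.6 on KO-labelled arrays and 53.8, 54.8 and 48.0 on WT-labelled arrays (-1.71 ± 0.11, adjusted p = 1.07e-05). H4C2 was at -1.61 ± 0.09, H3C2 at -1.22 ± 0.12, H4C1 at -1.20 ± 0.07 and H4C8 at -0.99 ± 0.08, all at low intensities. Their KO-labelled arms lay wholly below, as did those of 29% of all genes tested. H4C3, H2AC6 and H3C12 were higher, at 0.45, 0.41 and 0.27. Their products are the core histones, and their transcripts normally end in a stem-loop without a poly(A) tail. Histone genes of one class are near-identical in coding sequence, so a probe may read more than 1 of them. With slide as a fixed block, which called 3024 of the 9766 genes tested, 15 of the 33 were lower and 3 higher.

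**Figure D3:**
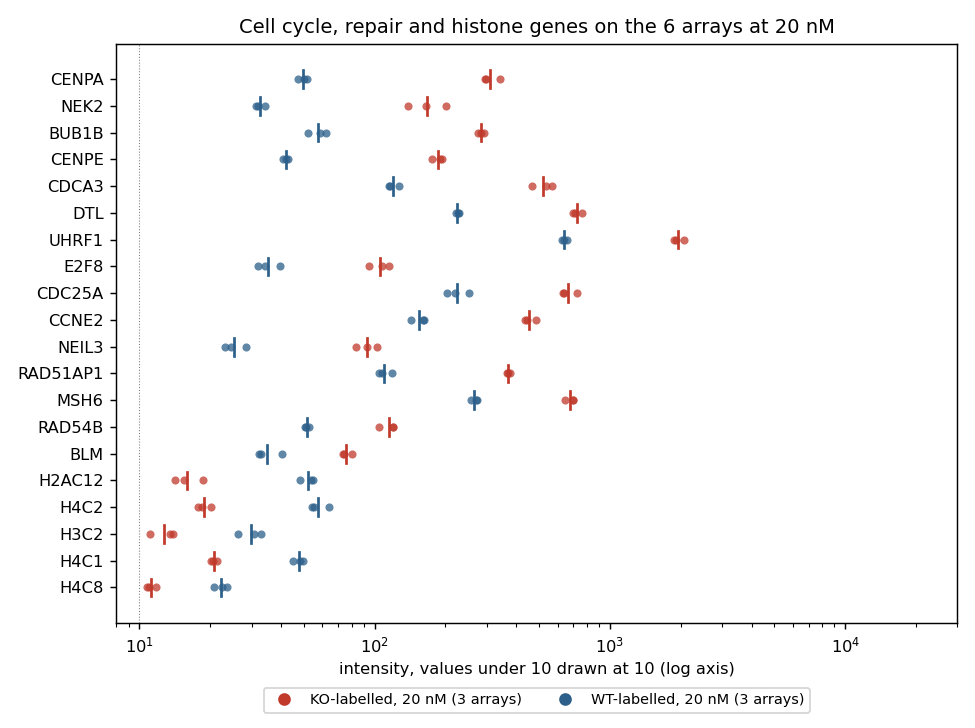
Intensity of 20 genes of mitosis, G1/S, DNA repair and histones on each of the 6 arrays at 20 nM, on a log axis with values under 10 drawn at 10 (dotted line). Red points are KO-labelled and blue points WT-labelled arrays, 3 each, and vertical bars are means of the log2 values. The first 15 genes have the KO-labelled points to the right, and the 5 histone genes have them to the left, as for H2AC12 at 14.1 to 18.6 against 48.0 to 54.8.

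XPO1, the target of leptomycin B, read 1253, 1326 and 1372 on KO-labelled and 1204, 1066 and 1370 on WT-labelled arrays. The arms overlapped, and the difference of 0.12 ± 0.10 was not called (adjusted p = 0.328). Among the 5 tested markers of XPO1 inhibition, which include XPO1 itself, 3 were lower and none higher (median -0.55): ARRDC4, an alpha-arrestin, at -1.58 ± 0.10, the neurotrophin receptor NGFR at -1.08 ± 0.09, and the amino acid transporter SLC43A2 at -0.55 ± 0.15. SLC43A2 was not called with slide as a fixed block (adjusted p = 0.145).

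Of 43 nuclear export and import genes, 26 were higher (background 27.8%) and 1, IPO13, was lower at -0.56 (background 25.2%, median 0.33). NUP107, a scaffold nucleoporin of the pore, led at 1.43 ± 0.07, with readings of 889, 940 and 944 against 354, 334 and 343. NUP98, a nucleoporin that contacts transport receptors, was at 0.94 ± 0.08, the import receptors TNPO1 and IPO7 at 0.85 ± 0.11 and 0.70 ± 0.09, and the importin alpha KPNA2 at 0.73 ± 0.22. For KPNA2 the WT-labelled array 3, at 207, lay below the other two at 374 and 363, and its adjusted p was 0.023. The fixed slide block, which called 3024 of the 9766 genes tested, left 17 genes of the list higher and none lower.

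Interferon response and antigen presentation genes were lower in KO-labelled arrays for 25 of 32 members (background 25.2%) and higher for 1 (background 27.8%), IRF7 at 0.36 (median -0.68). CASP4, the caspase that senses cytosolic lipopolysaccharide, read 11.1, 11.9 and 11.8 on KO-labelled arrays. It read 225, 221 and 216 on WT-labelled arrays, and the -4.25 ± 0.07 was 19.0-fold (adjusted p = 2.7e-08). TAP1, a subunit of the peptide transporter that feeds class I molecules, read 606, 646 and 596 against 3541, 3469 and 3857 (-2.56 ± 0.07). IFIT2, an interferon-induced RNA-binding protein, was at -1.55 ± 0.09, IFI35 at -1.23 ± 0.06 and HLA-DMA, which loads class II molecules, at -1.17 ± 0.07. The class I chains HLA-E and HLA-B were at -1.09 and -0.91, and their light chain B2M at -0.60. A further 18 members, MX1, RSAD2 and GBP1 among them, were too dim to test.

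NF-kB targets were lower for 10 of 15 (background 25.2%) and higher for 1 (background 27.8%), SOD2 at 0.51 (median -0.42). CFLAR, the inhibitor of caspase 8 known as FLIP, led at -2.19 ± 0.12, with readings of 14.6, 10.7 and 13.7 against 58.8, 62.6 and 55.1. The urokinase gene PLAU was at -1.54 ± 0.08, the inhibitor NFKBIE at -0.77 ± 0.10, and the subunits NFKB2 and RELB at -0.71 ± 0.06 and -0.58 ± 0.12. All 5, picked for the largest called differences, had the KO-labelled arm wholly below, as had 29% of all genes tested. Under the fixed slide block, which called 3024 of the 9766 genes tested, 5 were lower and 1 higher, and RELB was not called (adjusted p = 0.127).

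Among the 14 largest falls, 7 stood outside the p53 lists. ACTA2, smooth muscle actin, which has been described as p53-inducible, read 37.0, 34.9 and 41.2 on KO-labelled and 947, 996 and 968 on WT-labelled arrays (-4.69 ± 0.08, 25.8-fold). MKX, a homeobox factor, was at -3.83 ± 0.12. Several transcripts were under 10 on every KO-labelled array. SLC1A3, a glutamate and aspartate transporter, was at least 14.1-fold lower there. PLCL2, a phospholipase C-like protein, was at least 12.7-fold lower, PROM1, which encodes the surface antigen CD133, at least 11.04-fold, and ABCA1, the cholesterol exporter, at least 9.98-fold. NRIP1, a nuclear receptor corepressor from the list that told the labels apart in untreated arrays, was at -3.19 ± 0.10. That list of 7 was chosen on untreated arrays of this series and is not independent evidence; 5 of its members (GDF15, CASP4, PROM1, CDKN1A and NRIP1) were lower and 2 (CAMK2D and ZBED2) higher at 20 nM.

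Beside the mitotic genes, the 14 largest rises held CAMK2D, a calcium and calmodulin-dependent kinase, which read 116, 91.2 and 121 on KO-labelled and 16.4, 16.9 and 16.4 on WT-labelled arrays (2.71 ± 0.11, 6.56-fold, adjusted p = 1.09e-06). GAGE12J, a cancer-testis antigen of a multicopy family whose probes may be shared, was under 10 on all WT-labelled arrays and at least 6.01-fold higher in KO-labelled ones. CHPT1, a choline phosphotransferase, was at 2.52 ± 0.11, and ACSL5, a fatty acyl-CoA synthetase, at 2.51 ± 0.07. The glucose transporter SLC2A3 was at 2.47 ± 0.09, the mitochondrial import subunit TIMM17B at 2.45 ± 0.08, and the zinc finger factor ZBED2 at 2.36 ± 0.08. The growth factor FGF9, at 2.28 ± 0.07, and the cationic amino acid transporter SLC7A2, at 2.18 ± 0.11, closed the group. Arms that did not overlap were a condition for entering the 14.

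The background for the lists in this paragraph was 27.8% higher and 25.2% lower. Wnt targets were higher for 8 of 13 and lower for 1 (median 0.47), with AXIN2, a scaffold of the beta-catenin destruction complex, at 1.90 ± 0.08 (513, 524 and 562 against 136, 137 and 157). TCF7L2, the main TCF factor of the gut, was at 1.42 ± 0.11, FRAT2, which binds GSK3, at 1.35 ± 0.11, the receptor FZD7 at 1.11 ± 0.18 and BAMBI at 0.87 ± 0.07. Intestinal and epithelial genes were lower for 11 of 18 and higher for 3 (median -0.41), and 25 others on the array were too dim to test. Among them the adhesion molecule CEACAM1 was under 10 on KO-labelled arrays and at 77.9, 75.1 and 92.8 on WT-labelled ones, at least 8.16-fold higher there. LCN2, lipocalin 2, was at -1.53 ± 0.08, but was not called with all 26 arrays in the fit (adjusted p = 0.0907). Matrix and adhesion genes were lower for 10 of 22 and higher for 3, led by S100A4, a calcium-binding protein of motile cells, at -2.06 ± 0.06.

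ATF4 and unfolded protein response genes were higher for 18 of 34 and lower for 6 (median 0.20). The background for the lists in this paragraph was 27.8% higher and 25.2% lower, so their lower members did not exceed it. The lower side was led by SESN2, a sestrin that is also a p53 target, at -1.91 ± 0.16, and ATF3, a stress-induced bZIP repressor, at -1.42 ± 0.06. ATF3 read 1345, 1357 and 1322 on KO-labelled and 3489, 3653 and 3634 on WT-labelled arrays, and was not called with all 26 arrays in the fit (adjusted p = 0.203). The higher side was led by CEBPG, a partner of ATF4, at 1.02 ± 0.08, and HERPUD1, of endoplasmic reticulum degradation, at 0.93 ± 0.10. Immediate early and ERK feedback genes were higher for 15 of 32 and lower for 7, with DUSP6, the ERK phosphatase, at 1.91 ± 0.09 and SPRY1, an inhibitor of receptor tyrosine kinase signalling, at -1.97 ± 0.07.

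Several further lists are set against the background of 27.8% higher and 25.2% lower. Heat shock factor targets had 5 of 15 higher and 1 lower, NRF2 and glutathione genes 3 of 17 higher and 4 lower, and lysosome and autophagy genes 6 of 32 higher and 9 lower. Ribosome biogenesis genes had 8 of 46 higher and 7 lower, and oxidative phosphorylation genes 2 of 53 higher and 8 lower (median -0.05). Cytosolic ribosomal protein genes had 5 of 59 higher and 11 lower (median -0.08), but with slide as a fixed block 5 were higher and 1 lower. That block called 3024 of the 9766 genes tested, against 5175 without it, so the background above does not hold for its counts. RPL27A, a large subunit protein, read 398, 422 and 402 on KO-labelled arrays and 1914, 1905 and 523 on WT-labelled ones, so that the WT-labelled array on slide 2 lay near the KO-labelled arrays. Its -1.61 ± 0.45 (adjusted p = 0.0174) was -0.38 on slide 2, where its call was lost (adjusted p = 0.0552). Housekeeping genes had more members higher than the background share, 8 of 16, and 2 lower, but 1 and 1 with the fixed block, and the tubulin gene TUBB led them at 1.04 ± 0.09.

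In the remaining lists, with the same background, hypoxia-induced genes had 13 of 23 higher and 6 lower, with ADM, adrenomedullin, at -1.35 ± 0.07 against SLC2A3 above. BCL2 family and caspase genes had 6 of 24 higher and 11 lower, from BAK1, an outer membrane pore former, at -1.31 ± 0.08 to CASP2, the caspase that PIDD1 activates, at 1.08 ± 0.07. TGF-beta and BMP targets had 5 of 12 higher and 2 lower, with the ligands BMP4 at 1.46 ± 0.07 and BMP7 at -1.76 ± 0.08. FOXO factors and targets had 9 of 20 higher and 3 lower, amino acid transporters 7 of 18 and 5, sterol genes 6 of 20 and 3, metallothioneins and zinc exporters 2 of 8 and 1, cyclic AMP-linked genes 2 of 9 and 3, and cancer-testis genes none of 9 and 3. The cancer-testis gene GAGE12J, higher in KO-labelled arrays as given above, stood outside that list.

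Whether the labels already differed this way without leptomycin B was read from 6 untreated arrays of the same slide series, KO-labelled and WT-labelled replicates 4 to 6. One slide held the WT-labelled arrays 4 to 6 and the KO-labelled array 4, a further slide held the KO-labelled arrays 5 and 6, and neither held an array at 20 nM. Treatment and slide therefore cannot be told apart here, and without the arrays numbered 4 neither can label and slide among the untreated arrays. Of the same 9766 genes, 211 (2.16%) were called, 84 (0.86%) higher and 127 (1.3%) lower in KO-labelled arrays. Deviations of same-numbered untreated arrays from the mean of their label correlated at 0.77, 0.70 and 0.71. The highest correlation with another number was 0.68 for KO-labelled array 5 and 0.69 for KO-labelled array 6. The numbers therefore set array 4 apart but do not pair arrays 5 and 6. With the replicate number as a block 590 genes (6.04%) were called. Untreated array 4 of each label stood apart from arrays 5 and 6: ATF3 read 143 on the WT-labelled and 164 on the KO-labelled array 4, against 2259 to 2647 on the other 4. The number of calls followed these arrays, at 1667 without the KO-labelled array 4. It was 443 without the WT-labelled array 4, and 1 to 4 when any other untreated array was left out. Of the 211 genes, 183 (86.7%) were also called at 20 nM, where they made up 3.54% of the calls, and 179 of these had the same sign. Over the 9766 genes, which are not independent replicates, the untreated and the 20 nM differences had r = 0.57 and rho = 0.46, with no array in common.

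The change of the difference between the labels, from untreated to 20 nM, was tested directly in a fit over the 12 arrays of the series. It was called for 742 genes (7.6%), 427 (4.37%) towards higher and 315 (3.23%) towards lower in KO-labelled arrays. Without both untreated arrays numbered 4 it was called for 4141 genes (42.4%), 2139 (21.9%) towards higher and 2002 (20.5%) towards lower, and these include all of the 742. Without the KO-labelled array 4 alone it was called for 2484 genes, without the WT-labelled one for 1124, and without one of the other 10 arrays for 390 to 637. With the replicate number as a block, a setting added after the data were seen, it was called for 2312 genes (23.7%), 1223 (12.5%) towards higher and 1089 (11.2%) towards lower. This block also joins the 20 nM arrays by number, although their numbers do not pair them.

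Mitosis genes had a median difference of 0.32 in the untreated arrays and of 1.51 at 20 nM, on other slides. The change was called towards higher for 39 of 56 mitosis genes, for 50 without the arrays numbered 4 and for 49 with the replicate block. BUB1B read 541, 363 and 379 on untreated WT-labelled arrays 4, 5 and 6, and 503, 532 and 487 on untreated KO-labelled ones. At 20 nM the WT-labelled arrays read 52.2 to 62.2 and the KO-labelled ones 276 to 293. Its change was 2.03 ± 0.20 (adjusted p = 4.74e-04). CENPA changed by 1.93 ± 0.29, HJURP by 1.98 ± 0.17, and SPC25, a kinetochore subunit, by 2.24 ± 0.24. Of G1/S genes, 24 of 53 changed towards higher and 1 towards lower (41 and 1 without the arrays numbered 4, and 40 and 1 with the replicate block). DTL read 801, 1006 and 1108 on untreated WT-labelled and 760, 968 and 1051 on untreated KO-labelled arrays, which overlap, and changed by 1.75 ± 0.20 (adjusted p = 8.47e-04).

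Histone genes moved the other way in the same test. The change was called towards lower for 15 of 33 and towards higher for 1 (21 and 1 without the arrays numbered 4, and 19 and 1 with the replicate block). H2AC12 lay between 2.87 and 10.1 on all 6 untreated arrays, at or about the floor, and its change was -1.71 ± 0.15 (adjusted p = 2.85e-04). H3C13 changed by -2.14 ± 0.23, from 17.5 to 19.0 on untreated WT-labelled and 21.5 to 35.2 on untreated KO-labelled arrays to 166 to 185 and 50.2 to 65.2 at 20 nM. Both labels therefore read higher at 20 nM than untreated, and the WT-labelled arrays the more so.

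Among the p53 targets the change was called towards lower for 12 of 82 and towards higher for none, or for 37 and 2 with the replicate block. Without the arrays numbered 4 it was called towards lower for 13 of 18 apoptosis genes and 13 of 20 secreted and surface genes, with none towards higher. In the other roles it was then called towards lower and higher for 4 and 2 of 10 feedback regulators, 6 and 3 of 12 arrest genes, 6 and 4 of 15 metabolic genes and 4 and 2 of 8 repair genes, where 20.5% of all genes went lower and 21.9% higher. MDM2 read 10.0, 31.8 and 27.6 on untreated WT-labelled and 7.26, 17.1 and 20.3 on untreated KO-labelled arrays. These overlap only through the WT-labelled array 4, and the change of MDM2 was -2.14 ± 0.55 (adjusted p = 0.0417). SESN1 changed by -2.24 ± 0.46 and SERPINB5 by -2.06. For CDKN1A, untreated WT-labelled arrays read 5212, 17672 and 17963 and untreated KO-labelled ones 1291, 3463 and 3330, so that the labels were apart without the agent. Its change of -1.10 ± 0.66 was not called (adjusted p = 0.383), but was called at -0.97 without the arrays numbered 4 (adjusted p = 4.8e-05) and with the replicate block (adjusted p = 0.00197). GDF15 read 1144, 8043 and 8320 against 384, 378 and 387 in untreated arrays. Its change of -1.38 ± 0.83 was not called (adjusted p = 0.381, and 0.179 with the replicate block), and without the arrays numbered 4 it was called at -0.43 (adjusted p = 0.00723). TP53INP1 changed by -0.07 ± 0.60 with all arrays and by 0.66 without those numbered 4 (adjusted p = 0.00239), a turn of sign.

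Some differences were as wide or wider without leptomycin B, while others turned sign or were much narrower there. Interferon response and antigen presentation genes had a median of -0.70 in untreated arrays and of -0.68 at 20 nM. Of the 32 members, 8 were called lower and none higher in the untreated arrays, where 1.3% of all genes were called lower and 0.86% higher. CASP4 read 380, 682 and 688 on untreated WT-labelled and 10.9, 15.8 and 18.04 on untreated KO-labelled arrays, a difference of -5.27 against -4.25 at 20 nM (change 1.02 ± 0.33, adjusted p = 0.0903, or 0.00172 with the replicate block, and 1.10 with adjusted p = 2.73e-05 without the arrays numbered 4). PROM1 read 253, 304 and 291 on untreated WT-labelled arrays and lay under 10 on the KO-labelled ones, where both bounds rest on the floor. ADGRF1, an adhesion receptor, had the largest called change towards higher, 2.62 ± 0.29, from 143 to 260 on untreated WT-labelled arrays to 22.4 to 29.2 at 20 nM, while the KO-labelled arrays lay at or near the floor throughout. FRAT2 turned sign, from -0.88 untreated to 1.35 at 20 nM (change 2.23 ± 0.21). IRX3, a homeobox factor, changed by 2.37 ± 0.33, more than its 1.23 at 20 nM, so that its sign turned as well. AKAP19, an anchor of protein kinase A, changed by -2.34 ± 0.16, nearly all of its -2.44 at 20 nM. ANKRD30BL changed by -2.36 ± 0.35, most of its -2.79 at 20 nM. At 20 nM ANKRD30BL read 133, 145 and 68.4 on WT-labelled arrays, the last on slide 2, against 13.7 to 19.4 on KO-labelled ones.

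**Figure D4:**
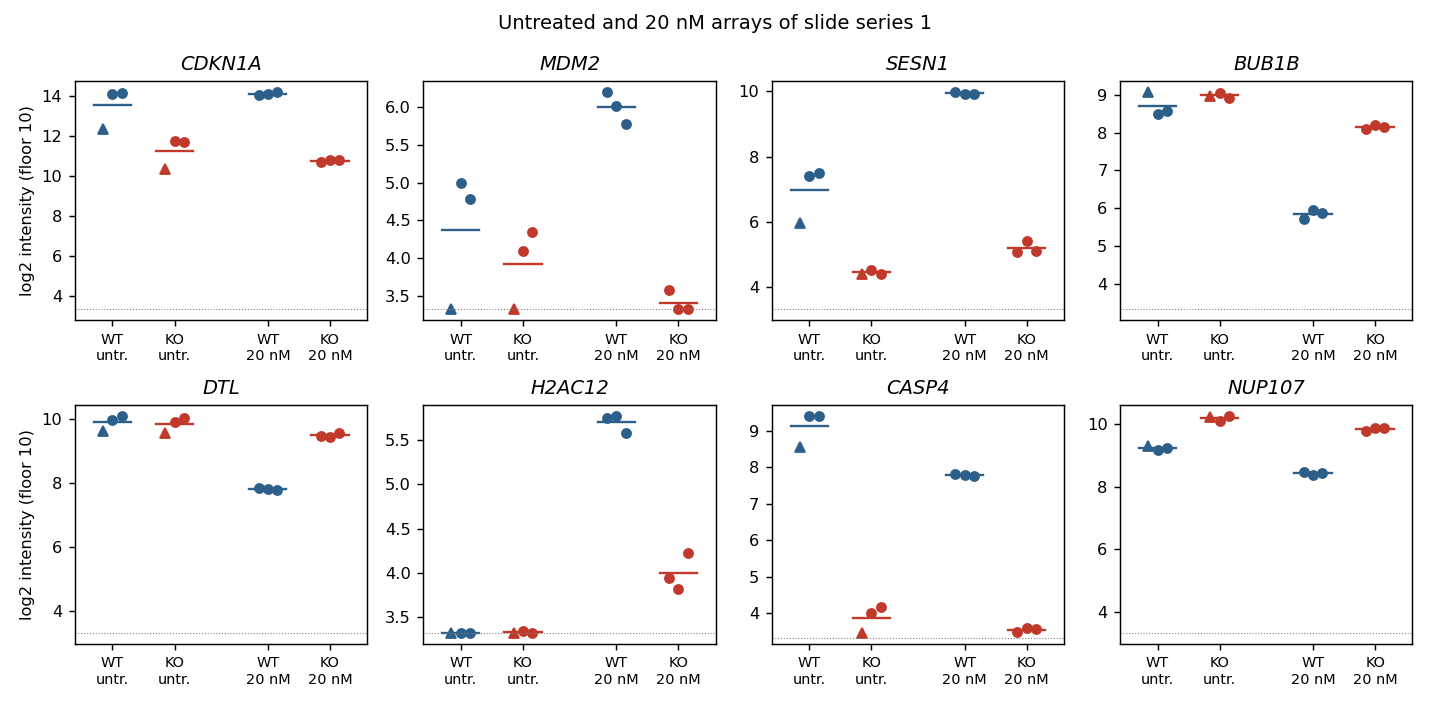
Log2 intensity, with values under 10 set to 10 (dotted line), of 8 genes on the untreated arrays 4 to 6 and the 20 nM arrays 1 to 3 of each label. Each mark is an array, triangles are the untreated arrays numbered 4, and bars are means. BUB1B and DTL overlap in untreated arrays, BUB1B only through the WT-labelled array 4, and part at 20 nM. CASP4, NUP107 and CDKN1A are apart in both.

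The arrays at 2 nM leptomycin B, 3 of each label, were on other slides and gave nearly the mirror image. Of the 9766 genes, 5596 (57.3%) were called at 2 nM, 2696 (27.6%) higher and 2900 (29.7%) lower in KO-labelled arrays. A total of 4103 genes were called at both doses, 79.3% of the calls at 20 nM and 73.3% of those at 2 nM. Of these, 4061 had opposite signs and 42 the same sign. Across the 9766 genes r was -0.90 and rho -0.84, with no array in common. CDKN1A averaged 21022 on the KO-labelled and 1252 on the WT-labelled arrays at 2 nM, a difference of 4.07 against -3.36 at 20 nM, and the p53 targets had a median of 1.16 against -1.07. Mitosis genes had a median of -1.92 against 1.51. Untreated arrays 7 to 10 lay on the same slides as the 2 nM arrays, each label on a slide of its own. There, without leptomycin B, CDKN1A read 4031 to 4672 on the KO-labelled and 615 to 1016 on the WT-labelled arrays, so that it ran against the labels without the agent too. The p53 targets had a median of 0.11 on those untreated arrays, with all genes at -0.01.

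The difference between the doses was tested directly and called for 6546 genes (67%), 3393 (34.7%) towards higher and 3153 (32.3%) towards lower at 20 nM. These counts hold only for the labels as given: dose and slide series changed together, and the label went against its own targets at 2 nM, so that dose, labels and slides cannot be told apart there. ACTA2 was at -4.69 at 20 nM and 5.43 at 2 nM, and TP53I3 at -4.62 and 5.42. GDF15 was at -4.85 and 4.79, SESN1 at -4.75 and 4.42, and SLC1A3 at -3.82 and 4.69. With the sign of the 2 nM difference turned, 20 nM minus 2 nM would be 0.74 for ACTA2, 0.80 for TP53I3, -0.06 for GDF15, -0.33 for SESN1 and 0.87 for SLC1A3, values that were not tested. CENPA was at 2.64 at 20 nM and -3.40 at 2 nM, CDCA3 at 2.13 and -3.15, NEK2 at 2.36 and -2.81, GAGE12J at 2.59 and -2.73, and CAMK2D at 2.71 and -2.67. Turned in the same way, their differences between the doses would be -0.75, -1.02, -0.45, -0.14 and 0.05. Histone genes departed from the mirror image: their median was -0.45 at 20 nM and -0.32 at 2 nM. IFIT2, at -1.55 and -0.01, departed from it as well. At 2 nM, however, IFIT2 averaged 13.60 on the KO-labelled and 13.55 on the WT-labelled arrays, near the floor of 10. The histone genes H2AC12, H4C2, H3C2, H4C1 and H4C8 also averaged only 8.38 to 16.0 there, so a difference could hardly show.

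**Figure D5:**
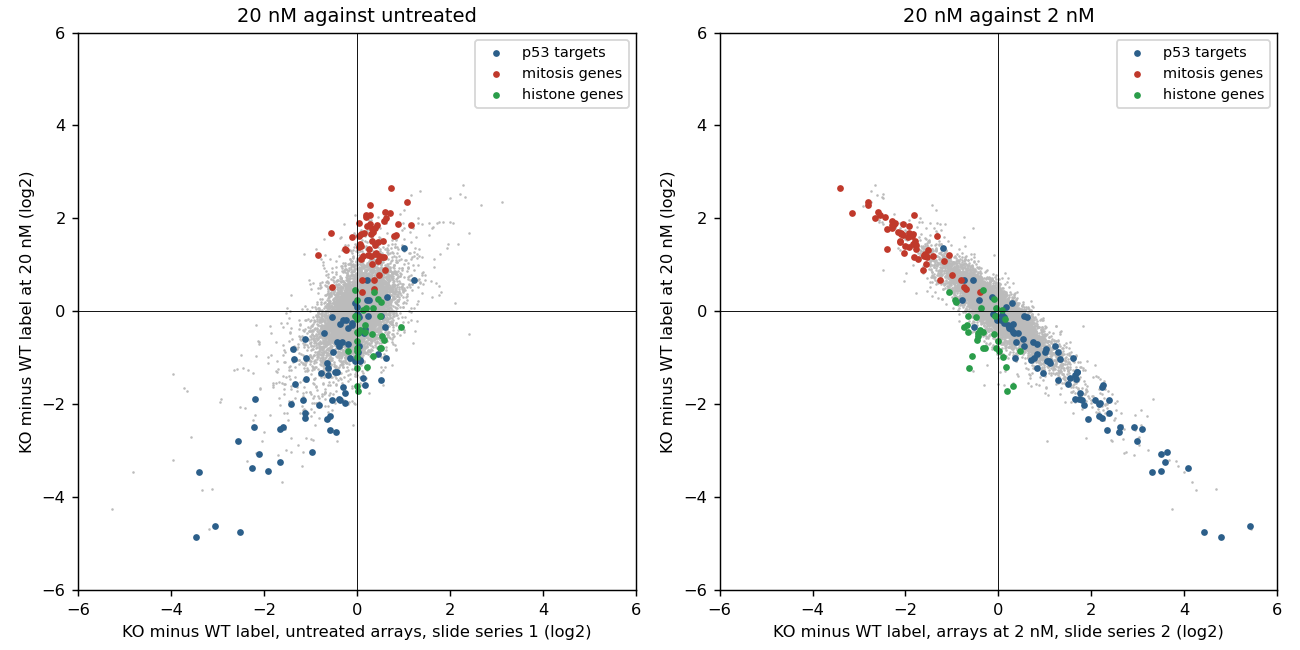
KO-labelled minus WT-labelled differences at 20 nM (vertical) against those in untreated arrays of the same slide series (left) and in arrays at 2 nM (right), in log2 intensity, for 9766 genes (grey) with p53 targets in blue, mitosis genes in red and histone genes in green. On the left the mitosis genes rise above a horizontal spread near 0. On the right the points fall along a descending diagonal (r = -0.90), with the histone genes below it.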

How the data were processed

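One deposited table holds the intensity of 22177 probes on 26 arrays, on a linear scale, which the authors made in BeadStudio (per the submitters' processing notes). Its version and the correction and normalization methods used are not given in these sources. Of the probes, 21101 have a gene symbol, standing for 17283 genes, and the probe with the highest mean over the 6 arrays at 20 nM stood for its gene. Intensities under 10 were set to 10 and log2 taken, without further normalization. Of the values on the 6 arrays, 49.7% were at or under 10, so differences of dim genes are understated and their SE may be too small. Genes above 10 on at least 3 of the 6 arrays were tested, 9766 in all, with limma 3.58.1 (lmFit, eBayes) in R 4.3.3 on those 6 arrays and, for other contrasts, on the arrays they name. Adjustment over genes followed Benjamini and Hochberg. The number of arrays limits the precision. The fit was tested on simulated data, where the share of false calls at 20 nM came out above the nominal one and small changes were often missed. RefSeq promoters matched 8065 of the tested genes.

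Arrays were grouped by their titles. Deviations of same-numbered arrays of the labels correlated at 0.06, 0.05 and 0.10 at 20 nM, so that the numbers do not pair those arrays. In the untreated arrays 4 to 6 the values were 0.77, 0.70 and 0.71, and the pairing there is taken from these values alone. Arrays 5 and 6 correlated across numbers nearly as well, at up to 0.68 and 0.69. The members and lists were chosen with earlier results of these data known. Named genes are CDKN1A, MDM2 and XPO1, 14 called genes each way, those with the widest differences and arms that do not overlap, up to 5 called members of each list with the largest absolute difference, 5 each way for each contrast between differences, and the genes that told the labels apart in untreated arrays. Genes outside this rule that are named with 1 value in a list were chosen after their values were seen.

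Alternatives were other floors (1 and 20), 50 added in place of the floor, other filters, quantile normalization, eBayes with trend and robust, the mean of all probes, all 26 arrays in the fit, the replicate number or slide as a block (statmod 1.5.0), slide 2 alone, and leaving out each array. The replicate block for the change from untreated to 20 nM was added after the data were seen.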

Additional observations from a re-analysis of the deposited data

Results flagged for a closer look

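The difference between the labels itself differed, by a direct test, between untreated and 20 nM arrays for 742 genes and between 20 nM and 2 nM arrays for 6546 genes. Values below are changes of the KO minus WT difference from untreated to 20 nM on the log2 scale, limma, for named genes whose change was called over 9766 genes. Genes of mitosis and centromeres lay towards higher, with CENPA at 1.93, NEK2 at 1.29, BUB1B at 2.03, HJURP at 1.98, CENPE at 1.56, CDCA3 at 1.42 and SPC25 at 2.24. So did genes of G1/S and DNA repair, with DTL at 1.75, UHRF1 at 1.28, E2F8 at 1.96, NEIL3 at 2.16, RAD51AP1 at 1.67, MSH6 at 1.17, RAD54B at 1.08 and BLM at 0.98. Genes of the p53 lists lay towards lower, with MDM2 at -2.14, SESN1 at -2.23, ZMAT3 at -1.57, FAS at -1.67, APAF1 at -1.68, TIGAR at -1.72 and SERPINB5 at -2.06. Histone genes did likewise, with H2AC12 at -1.71, H4C2 at -1.61, H3C2 at -1.22, H4C1 at -1.41, H4C8 at -0.99 and H3C13 at -2.14. H4C2, H3C2 and H4C8, like NGFR below, lay under 10 on all 6 untreated arrays. No untreated difference could be read for them, and their changes are their differences at 20 nM alone. Among the other large differences at 20 nM were ACTA2 at -1.50, PLCL2 at -2.06, ABCA1 at -2.13, GAGE12J at 1.23 and PROM1 at 1.35. Further genes towards higher were ADGRF1 at 2.62, IRX3 at 2.37, FRAT2 at 2.23, TCF7L2 at 1.32, IFI35 at 1.23, PDE4B at 1.19, FZD7 at 0.98, ACAT2 at 0.89, TRIB2 at 0.84, CASP2 at 0.81, PINK1 at 0.75 and NUP107 at 0.45. Further genes towards lower were ANKRD30BL at -2.36, AKAP19 at -2.34, CEACAM1 at -1.85, RPL32 at -1.63, AKR1B10 at -1.54, BAK1 at -1.28, CFLAR at -1.14, NGFR at -1.08, ITGA3 at -0.91, TAP1 at -0.88, MSMO1 at -0.85, ME1 at -0.64 and ATP5MK at -0.56. PROM1 and ADGRF1, whose KO-labelled arrays lay at or near the floor, had lower readings on the WT-labelled arrays at 20 nM than untreated. All of these calls held without both untreated arrays numbered 4 and with the replicate number as a block, settings that both called more genes than the 742. Slide as a random block called 457 genes and leaving out 1 array as few as 390. Whether each gene above held under those settings was not read.

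Between the doses, 20 nM minus 2 nM, the difference was 6.04 for CENPA, 5.38 for CAMK2D, 5.32 for GAGE12J, 5.28 for CDCA3 and 5.17 for NEK2. It was -10.1 for ACTA2, -10.0 for TP53I3, -9.64 for GDF15, -9.17 for SESN1 and -8.50 for SLC1A3. These values stand for the labels as given. At 2 nM the labels ran against the p53 targets, as CDKN1A did in the untreated arrays of the same slides, and slides and dose differ together, so that labels, dose and slides cannot be told apart. With the 2 nM sign turned, the 10 values would lie between -1.02 for CDCA3 and 0.87 for SLC1A3. The groups of 3 arrays were too small for a test of single outlying arrays.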

How the results depend on the processing

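The number of genes called between the labels at 20 nM was 5175, and 3229 with all 26 arrays in the fit and 3024 with slide as a fixed block. The other settings gave 4074 to 5432, and leaving out 1 array gave 4501 to 5245. The p53 targets called lower, 64, ranged from 53 to 66 over all settings and from 61 to 64 without 1 array. At 20 nM the arrays share only a number, and with a replicate block 5093 genes were called. Of the 191 named genes, 23, besides NDUFA5, were no longer called with slide as a fixed block and 25 with all 26 arrays in the fit, ATF3 (adjusted p = 0.203) and LCN2 (adjusted p = 0.0907) among the latter. List medians moved by more than the spread between arrays for 22 of 39 lists with slide as a fixed block and for 24 with 50 added in place of the floor. NDUFA5 turned to 0.037 on slide 2 alone, and its arms overlapped in the whole comparison. The fit with slide as a fixed block gives the same value by design, so it is not a second check. RPL27A fell from -1.61 to -0.38 on slide 2.

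The change from untreated to 20 nM, 742 genes, was called for 2312 with a replicate block, for 1186 with all 26 arrays in the fit, for 457 with slide as a random block, for 4141 without both untreated arrays numbered 4, and for 390 to 2484 without 1 array. Untreated differences, 211 genes, were 590 with a replicate block and 1 to 1667 without 1 array. At 2 nM, leaving out 1 array gave 4852 to 5236 genes, and for the difference between doses 6288 to 6582. With values under 20 set to 20, 16 of the named genes were no longer called, KPNA2 and RPL14 among them with the same difference, and the cause was not tested. Above 50 on at least 3 arrays, no fibroblast marker was left to give a median.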
